A study of Rattus norvegicus with 9 samples.

Results

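The connexin genes described here are Gja1, Gja4, Gja5 and Gjc1, which encode connexins 43, 37, 40 and 45. They were taken as the rows of the expression table that carry these symbols, in capitals or not, which gave 4 genes of 26407 rows. Their transcripts were measured in 9 RNA sequencing libraries. The cells, called S31, are wild-type vascular smooth muscle cells in primary culture, taken from cardiac microvessels of Wistar Kyoto males. S31 is 1 line, and whether the 3 libraries of a group are separate cultures is not stated, so the spread that p-values rest on may be technical. All cells, controls included, first spent 48 h without serum in medium with lactalbumin hydrolysate. The IGF-NS columns are PDGF-BB at 25 ng/ml with harvest at 48 h by their sample records, the PDGF-NS columns are IGF-1 at 25 ng/ml with harvest at 24 h by theirs, and the LH-NS columns are controls in fresh serum-free medium with harvest at 24 h. Column names and records thus name opposite growth factors. The sets are called by their columns, no growth factor is assigned to either, and growth factor and harvest time cannot be told apart in the set harvested later.

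Connexins are membrane proteins that assemble as hexamers into hemichannels, and hemichannels of adjoining cells dock to form gap junctions through which ions and small molecules pass. In the vessel wall these channels couple smooth muscle cells to each other and to the endothelium, and they carry changes of membrane potential along arterioles. Connexins 37 and 40 are best known from endothelium, connexin 43 is widespread in cultured smooth muscle, and connexin 45 is found in smooth muscle and in the conduction tissue of the heart. Connexin 40 also occurs in some smooth muscle, such as the renin-producing cells of the kidney.

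The values are FPKM, which are scaled by transcript length and by library, so levels of different genes can be compared. Library sums lay between 616765 and 748000 FPKM. The number of reads is unknown, but relative depth, read from the spacing of low values, was 0.724 to 1.16 in IGF-NS, 0.953 to 1.37 in PDGF-NS and 0.657 to 1.0 in LH-NS. Of the labelled cell type's 12 markers, 10, 10 and 12 averaged at least 1 FPKM in IGF-NS, PDGF-NS and LH-NS. Their summed level was 1429 to 1620, 1261 to 1454 and 4816 to 6844 FPKM. Means are given with SD over 3 libraries. Log2 fold changes, with their SE, come from limma on log2(FPKM + 1), where the added 1 shrinks the change of low genes. Adjusted p-values are Benjamini-Hochberg values over 11376 genes.

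Connexin 40 was the connexin that moved most, and it moved in opposite directions in the treated sets. Gja5 (ENSRNOG00000017484) had 0.197, 0.271 and 0.336 FPKM in the IGF-NS libraries, 12.1, 21.5 and 19.1 FPKM in the PDGF-NS libraries, and 2.84, 3.92 and 5.25 FPKM in the controls. No library of one set reached the range of another. Gja5 fell to 0.268 ± 0.0696 FPKM in IGF-NS, against 4.00 ± 1.20 FPKM in LH-NS, 14.9-fold lower by the ratio of means (log2 fold change −1.95 ± 0.24, limma adjusted p = 0.00044). It rose to 17.6 ± 4.87 FPKM in PDGF-NS, 4.39-fold above the same controls (1.88 ± 0.24, adjusted p = 0.00026). Both comparisons share the LH-NS libraries, so the direct one was also fitted. PDGF-NS stood 65.5-fold above IGF-NS by the ratio of means, with a log2 fold change of 3.84 ± 0.24 (95% interval 3.31 to 4.36, adjusted p = 1.1e-05). Tested genes are those averaging at least 1 FPKM over all libraries, and Gja5 is among them through PDGF-NS and LH-NS. Of these genes, 0.738% lay below Gja5 on average in IGF-NS, 57.3% in PDGF-NS and 22.4% in LH-NS. Genes low in every set are left out, so a place near the bottom in IGF-NS follows from the filter. In bulk RNA, fewer cells with a transcript and less transcript per cell cannot be told apart.

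**Figure D1:**
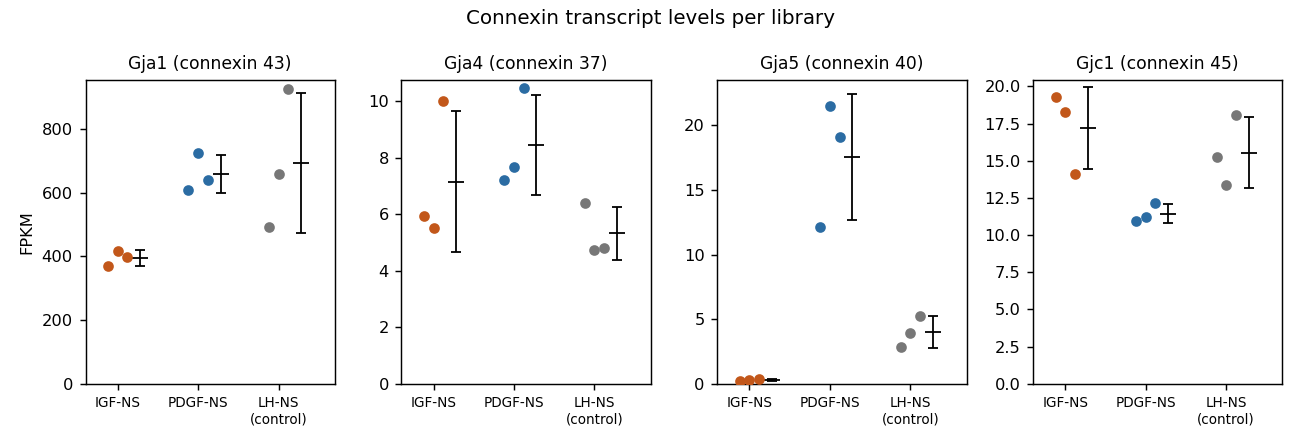
FPKM of the 4 connexin genes (vertical axes, linear, from 0) in each library of IGF-NS, PDGF-NS and LH-NS (control). Points are libraries 1 to 3 from left to right, and the black dash with bars is the mean ± SD of 3 libraries. Gja5 is at most 0.336 FPKM in IGF-NS and is 12.1 FPKM or more in PDGF-NS, and Gja1 is 369 to 418 FPKM in IGF-NS with every other library above that.

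Connexin 43 was by far the most abundant connexin and was lower in IGF-NS. Gja1 (ENSRNOG00000000805) had 369, 418 and 398 FPKM in IGF-NS, 609, 725 and 638 FPKM in PDGF-NS, and 491, 659 and 926 FPKM in LH-NS. The IGF-NS libraries were the 3 lowest of the 9, and the PDGF-NS libraries lay inside the wide range of the controls. Gja1 fell to 395 ± 24.3 FPKM in IGF-NS, against 692 ± 219 FPKM in LH-NS (−0.76 ± 0.20, limma adjusted p = 0.022). That call was lost without LH-NS library 2 (−0.77, adjusted p = 0.053), LH-NS library 3 (−0.53, adjusted p = 0.056) or IGF-NS library 1 (−0.71, adjusted p = 0.078), and in a fit of these 2 groups alone (adjusted p = 0.057). PDGF-NS had 657 ± 60.1 FPKM and did not pass against LH-NS (−0.03 ± 0.20, 95% interval −0.48 to 0.42, adjusted p = 0.93). Between the treated sets Gja1 was higher in PDGF-NS (0.73 ± 0.20, adjusted p = 0.036). This difference missed the threshold without any 1 of the 6 libraries compared or without LH-NS library 2, with adjusted p up to 0.12, and also with no filter on low values (0.062), with a common library sum (0.062) and with quantile normalization (0.06). In every set Gja1 stood above at least 97.9% of tested genes.

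RefSeq promoter windows were matched by symbol for 3 of the 4 genes, Gja1, Gja4 and Gja5. Those of the genes that moved against control, Gja5 and Gja1, are shown so that a reader can see what lies next to their start sites. Each runs from 250 bases before to 50 bases after the start site on the gene's strand, in build GRCr8, which may not be the build behind the FPKM values. Capitals mark matches to the motifs searched.
Gja5, chr2:187290977-187291276, plus strand: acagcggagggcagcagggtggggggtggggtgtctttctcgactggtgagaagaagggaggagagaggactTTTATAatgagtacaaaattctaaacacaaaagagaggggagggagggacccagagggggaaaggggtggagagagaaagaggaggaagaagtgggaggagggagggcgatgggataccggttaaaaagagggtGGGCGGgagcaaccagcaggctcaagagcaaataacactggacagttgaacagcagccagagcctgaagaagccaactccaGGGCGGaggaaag
Gja1, chr20:36302314-36302613, plus strand: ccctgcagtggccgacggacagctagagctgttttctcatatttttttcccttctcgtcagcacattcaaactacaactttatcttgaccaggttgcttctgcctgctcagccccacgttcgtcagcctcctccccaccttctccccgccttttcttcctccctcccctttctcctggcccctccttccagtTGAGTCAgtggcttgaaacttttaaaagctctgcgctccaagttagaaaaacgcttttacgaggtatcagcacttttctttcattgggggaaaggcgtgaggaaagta
The motifs were searched on both strands: the AP-1 site TGANTCA, the GC box GGGCGG, the T-box core GGTGTNA, the TATA element TATAAA and the CArG box of serum response factor. The Gja1 window held 1 AP-1 match, starting at position −58 from the start site, and 7.33% of 33469 rat promoter windows of this length held one. The Gja5 window held no AP-1 match but 2 GC boxes, at positions −44 and 38, and 33.1% of windows held at least 1. It also held the TATA letters on the reverse strand at position −178, which 14.2% of windows hold. Neither window held the T-box core (10.9% of windows) or a CArG box (1.64%). The Gja4 window, not printed, held 1 GC box at position −139. A match says only that these letters are in the window.

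Connexin 45 was the next most abundant in IGF-NS and LH-NS and was lower in PDGF-NS than in IGF-NS. Gjc1 (ENSRNOG00000048838) had 19.3, 18.3 and 14.1 FPKM in IGF-NS, 10.9, 11.2 and 12.1 FPKM in PDGF-NS, and 15.3, 13.3 and 18.1 FPKM in LH-NS. All PDGF-NS libraries lay below all others, while IGF-NS and control libraries overlapped. With 11.4 ± 0.618 FPKM in PDGF-NS, against 17.2 ± 2.76 FPKM in IGF-NS, it passed between the treated sets (−0.54 ± 0.15, limma adjusted p = 0.04). That call ended with the median ratio scaling (adjusted p = 0.056), with no filter on low values (0.055), and without any 1 of the PDGF-NS libraries or IGF-NS library 1 or 2 (0.093 to 0.14). Against LH-NS, with 15.6 ± 2.37 FPKM, PDGF-NS did not pass on the deposited scale (−0.40 ± 0.15, adjusted p = 0.073). It passed under each of the 3 other scalings, with log2 fold changes of −0.54 to −0.53 and adjusted p of 0.031 to 0.032, and without IGF-NS library 3 (0.045). IGF-NS against LH-NS gave 0.14 ± 0.15 (95% interval −0.21 to 0.48, adjusted p = 0.56), and median ratio scaling turned it to −0.016.

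Connexin 37 was called in no comparison over all 9 libraries. Gja4 (ENSRNOG00000014357) had 5.94, 5.50 and 10.0 FPKM in IGF-NS, 7.20, 7.67 and 10.4 FPKM in PDGF-NS, and 6.39, 4.75 and 4.81 FPKM in LH-NS. Library 3 of IGF-NS lay among the PDGF-NS values, and the other 2 lay among the controls. The mean in PDGF-NS, 8.44 ± 1.76 FPKM, was 1.59-fold that in LH-NS, 5.32 ± 0.927 FPKM, with no overlap of libraries. This did not pass over all 9 libraries (0.57 ± 0.22, limma adjusted p = 0.077) and passed in a fit of these 2 groups alone (adjusted p = 0.048) or without IGF-NS library 3 (0.031). The IGF-NS mean of 7.15 ± 2.49 FPKM gave 0.34 ± 0.22 against LH-NS (95% interval −0.16 to 0.83, adjusted p = 0.3). PDGF-NS against IGF-NS gave 0.24 ± 0.22 (−0.26 to 0.74, adjusted p = 0.54).

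The calls are set here beside those over all genes. In IGF-NS against LH-NS 2 of the 4 genes were called, both lower, where 24.9% of 11376 tested genes were called, 17.4% higher and 7.48% lower. In PDGF-NS against LH-NS 1 of 4 was called, higher, where 31.0% of tested genes were called, 20.7% higher and 10.2% lower. Between the treated sets 3 of 4 were called, 2 higher and 1 lower in PDGF-NS, where 15.9% were called, 8.33% higher and 7.55% lower. The median log2 fold change of all tested genes was 0.15, 0.13 and −0.02 in these comparisons. The balance over all genes depends on scaling: with median ratio scaling 1137 genes were higher and 1229 lower in IGF-NS against LH-NS, in place of 1976 and 851, and 1768 higher and 1678 lower in PDGF-NS against LH-NS, in place of 2355 and 1166. Between the treated sets a common library sum gave 737 higher and 1480 lower, in place of 948 and 859.

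**Figure D2:**
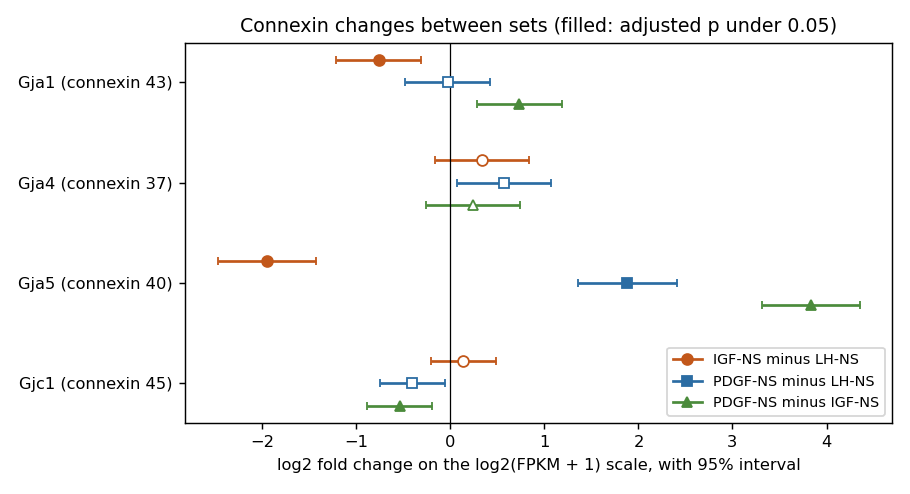
Log2 fold changes of the 4 genes on the log2(FPKM + 1) scale (horizontal axis), with 95% intervals from limma, for IGF-NS minus LH-NS, PDGF-NS minus LH-NS and PDGF-NS minus IGF-NS. Filled symbols have an adjusted p under 0.05. Gja5 lies at −1.95 and 1.88 against control, and Gja4 is open in all 3 comparisons.

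Within a library the sum over the 4 genes was dominated by connexin 43. Gja1 made up 93.6%, 94.5% and 94.2% of the FPKM summed over these 4 genes in IGF-NS, 95.3%, 94.7% and 93.9% in PDGF-NS, and 95.3%, 96.8% and 97.1% in LH-NS. The IGF-NS libraries lay below all controls (exact two-sided permutation p = 0.1, the smallest that 3 against 3 libraries can give), and PDGF-NS overlapped the controls (exact permutation p = 0.2). With all connexins of the table in the sum IGF-NS and LH-NS overlapped, at 93.3% in IGF-NS library 2 and 93.2% in LH-NS library 1. The sum itself was 420 ± 23.6 FPKM in IGF-NS, 695 ± 64.1 FPKM in PDGF-NS and 717 ± 222 FPKM in LH-NS. A share within a library does not change when all values of the library are scaled by 1 common factor. Quantile normalization is not such a scaling, and shares were not computed under it.

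Among connexins 37, 40 and 45 the make-up differed between the sets. Gja5 accounted for 0.774%, 1.13% and 1.37% of their sum in IGF-NS, 40.0%, 53.2% and 45.8% in PDGF-NS, and 11.6%, 17.8% and 18.7% in LH-NS. The sets did not overlap in any of the 3 comparisons, each with an exact permutation p of 0.1. Gjc1 held 69.8% ± 10.6 of that sum in IGF-NS, 31.0% ± 4.50 in PDGF-NS and 62.4% ± 1.79 in LH-NS, and the PDGF-NS libraries lay below all others. Shares of 1 sum are tied to each other, so a larger Gja5 share by itself lowers that of Gjc1. From LH-NS to PDGF-NS mean Gja5 went from 4.00 to 17.6 FPKM, and mean Gjc1 from 15.6 to 11.4 FPKM. For Gja4 the shares overlapped between all sets, at 29.1% ± 10.3, 22.6% ± 3.21 and 21.6% ± 4.47. The sum of the 3 genes was 24.6 ± 0.698 FPKM in IGF-NS, 37.4 ± 6.25 FPKM in PDGF-NS and 24.9 ± 3.07 FPKM in LH-NS. It was thus higher in every PDGF-NS library than in any other library, and overlapped between IGF-NS and control.

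**Figure D3:**
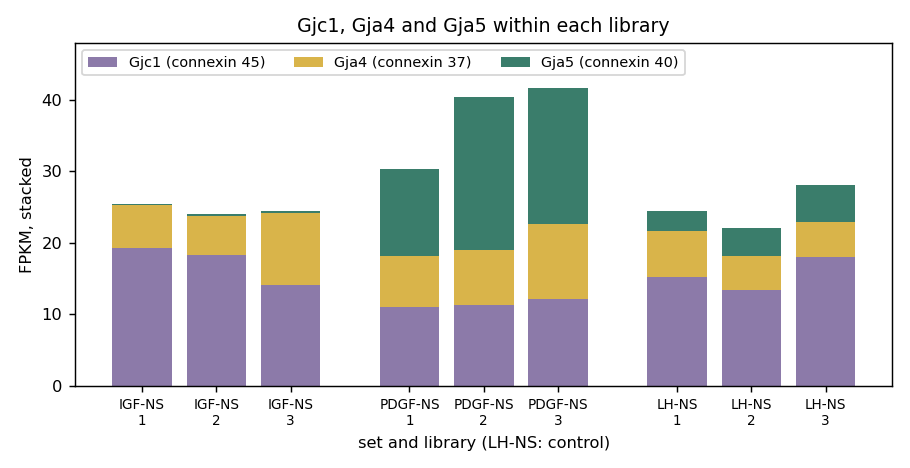
Stacked FPKM (vertical axis, from 0) of Gjc1, Gja4 and Gja5 in each of the 9 libraries, grouped by set with LH-NS as control. The Gja5 segment is 0.197 to 0.336 FPKM in IGF-NS, 12.1 to 21.5 FPKM in PDGF-NS and 2.84 to 5.25 FPKM in LH-NS.

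The order of the 4 genes by level therefore differed. In IGF-NS it was Gja1, Gjc1, Gja4 and Gja5, with no overlap between neighbours. In LH-NS the same order held for the means, but Gja4 and Gja5 overlapped. In PDGF-NS Gja5 came after Gja1, and its range of 12.1 to 21.5 FPKM overlapped that of Gjc1 at its lower end. The ratio of Gja5 to Gja4 was 0.0387 ± 0.00925 in IGF-NS, 2.10 ± 0.609 in PDGF-NS and 0.786 ± 0.324 in LH-NS.

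Of the other connexins, 15 had a row in the table, and 8 of the 15 were listed at 0 in all 9 libraries. Of the pannexins, which form channels of their own without docking, Panx1 had 8.04 ± 1.74, 7.82 ± 2.14 and 5.74 ± 1.33 FPKM in IGF-NS, PDGF-NS and LH-NS and passed in no comparison (adjusted p = 0.2, 0.23 and 0.92). Panx3 reached 1.32 FPKM in 1 control library and at most 0.448 FPKM in all others.

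Since connexins 37 and 40 are known from endothelium, endothelial markers were set beside them. Of 14 rows for these markers, 6 genes were listed at 0 in all 9 libraries, the VE-cadherin gene Cdh5 and the VEGF receptor gene Kdr among them, and Pecam1 did not exceed 0.192 FPKM. The summed level was 4.40 to 6.71 FPKM in IGF-NS, 6.15 to 9.67 FPKM in PDGF-NS and 10.9 to 11.2 FPKM in LH-NS. Most of it came from Egfl7 and the transcription factor gene Erg, the 2 that passed the filter. Erg fell in IGF-NS (−1.24 ± 0.27, limma adjusted p = 0.0091) and did not pass in PDGF-NS against LH-NS (−0.64 ± 0.27, adjusted p = 0.098). Egfl7 averaged 2.62 FPKM in both PDGF-NS and LH-NS, and Erg averaged 4.85 FPKM in PDGF-NS, against 7.98 FPKM in LH-NS. Vwf and Nos3 averaged 0.203 and 0.206 FPKM in PDGF-NS, against 0.0622 and 0.0682 FPKM in LH-NS. The part of these markers in the connexin levels was not tested. Of 9 leukocyte markers, Ptprc and Aif1 were listed at 0 throughout. The list's sum was 0.124 to 1.32 FPKM in IGF-NS, 1.76 to 9.76 FPKM in PDGF-NS and 0.133 to 0.740 FPKM in LH-NS. The macrophage marker Cd68 averaged 4.30 ± 4.41 FPKM in PDGF-NS, against 0.208 ± 0.192 FPKM in LH-NS (limma adjusted p = 0.015). The part of these markers in the Gja5 level was not tested. Of 11 cardiomyocyte markers, 4 were listed at 0 throughout, both cardiac myosin heavy chains Myh6 and Myh7 among them, and the list summed to 53.7 to 112 FPKM in IGF-NS, 50.0 to 97.7 FPKM in PDGF-NS and 515 to 865 FPKM in LH-NS. Most of that sum was 1 gene, Pln, the calcium pump regulator phospholamban, which averaged 60.8 FPKM in IGF-NS, 65.8 FPKM in PDGF-NS and 683 FPKM in LH-NS. Its part in the connexin levels was not tested, nor was that of the smooth muscle markers. Of 11 smooth muscle markers tested, 9 fell in IGF-NS, beside 7.48% of all genes, and 10 fell in PDGF-NS, beside 10.2%. Other pseudocounts, filters, scalings and fits left 7 to 10 lower for IGF-NS, while for PDGF-NS the number was 9 to 10. The 1 smooth muscle marker that rose in PDGF-NS was Des, the muscle filament desmin (1.30 ± 0.17, limma adjusted p = 0.00036). Des averaged 0.301 FPKM in IGF-NS, 5.18 FPKM in PDGF-NS and 1.51 FPKM in LH-NS, the same order of sets as Gja5. Des and Pln are named after their values were seen. Of 7 fibroblast markers tested, 4 rose in IGF-NS and 5 in PDGF-NS against LH-NS, beside 17.4% and 20.7% of all genes. With other pseudocounts, filters, scalings and fits, 3 to 4 of these markers rose in IGF-NS and 5 in PDGF-NS. Their list summed to 4875 to 6273 FPKM in IGF-NS, 2846 to 3506 FPKM in PDGF-NS and 2847 to 4153 FPKM in LH-NS, and its part was not tested either.

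Genes whose levels followed each connexin most closely over the 9 libraries were picked by Pearson's r of log2(FPKM + 1), as a description. The libraries form 3 sets, so a high r says mainly that a gene shares the order of the sets. For Gja5 these were Fxyd5, a modulator of the sodium pump (r = 0.993), Litaf, a protein of late endosomes and lysosomes (0.984), and Dusp6, the phosphatase that inactivates ERK (0.984). Fxyd5 averaged 13.9, 112 and 39.4 FPKM in IGF-NS, PDGF-NS and LH-NS, and Dusp6 averaged 4.46, 36.4 and 15.6 FPKM. For Gja1 they included Sbds, a ribosome maturation factor (0.967), and Plekha3 (0.964). Sbds averaged 20.8 FPKM in IGF-NS, 31.5 FPKM in PDGF-NS and 32.2 FPKM in LH-NS. For Gja4 they were Crat, carnitine acetyltransferase (0.978), Clcn6 (0.963) and Rab34 (0.957), and for Gjc1 they were Sgms1, a sphingomyelin synthase (0.960), Tmem177 (0.945) and Spty2d1 (0.937).

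Over all tested genes 17.4% were called higher and 7.48% lower in IGF-NS against LH-NS, 20.7% and 10.2% in PDGF-NS against LH-NS, and 8.33% and 7.55% in PDGF-NS against IGF-NS. Genes for the scaffolds and trafficking of connexins were lower more often than higher against control. Of 22 tested, 1 rose and 7 fell in IGF-NS (median −0.14, against 0.15 for all genes; 7.48% of all genes fell), and 1 rose and 10 fell in PDGF-NS (median −0.23, against 0.13; 10.2% of all genes fell). Nov encodes CCN3, a secreted protein reported to bind connexin 43. It averaged 209 ± 25.5 FPKM in IGF-NS, 186 ± 19.1 FPKM in PDGF-NS and 727 ± 96.4 FPKM in LH-NS, with log2 fold changes of −1.79 ± 0.15 and −1.96 ± 0.15 against control (limma adjusted p = 5.4e-05 and 1.5e-05). Vcl, vinculin of adhesion sites, fell by 1.66 and 2.05 on the log2 scale. Caveolins coat membrane pits that hold part of connexin 43. Cav1 was lower in PDGF-NS, 359 ± 35.8 FPKM, than in IGF-NS, 650 ± 79.2 FPKM (−0.85 ± 0.14, adjusted p = 0.0027), and fell in PDGF-NS against LH-NS, 904 ± 91.5 FPKM (−1.33 ± 0.14, adjusted p = 0.00011). Cav1 also fell in IGF-NS against LH-NS (−0.48 ± 0.14, limma adjusted p = 0.033), a call that 8 of 19 alternative settings ended. Cav2 fell in both sets (−0.93 and −1.32). The 1 member that rose was the ubiquitin ligase gene Nedd4 (0.49 and 0.37), whose protein is reported to send connexin 43 to degradation. Of 19 alternative settings, 4 ended the Nedd4 call in IGF-NS and 12 that in PDGF-NS, with limma adjusted p up to 0.088 and 0.2. Median ratio scaling and leaving out LH-NS library 3 or IGF-NS library 1 ended both. Without IGF-NS library 2 the call in IGF-NS was lost, and without LH-NS library 1 or any 1 PDGF-NS library that in PDGF-NS was. Tjp1, the scaffold ZO-1 that binds the tail of connexin 43, passed in no comparison (log2 fold changes 0.24, 0.34 and 0.10). Nedd4 and Tjp1 are named after their values were seen.

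Kinases reported to phosphorylate connexin 43 were set beside the same shares of all genes, 24.9% called in IGF-NS and 31.0% in PDGF-NS against LH-NS and 15.9% between the treated sets. Of 19 tested, 0 rose and 2 fell in IGF-NS (median −0.01), 2 rose and 1 fell in PDGF-NS (median −0.15; 3 fell under each of the 3 other scalings), and 1 was higher and 1 lower between the treated sets. In IGF-NS 1 fell without LH-NS library 3 or IGF-NS library 1 or 2, and between the treated sets 0 were lower without IGF-NS library 3 or PDGF-NS library 1 or 2. Camk2d, a calcium/calmodulin-dependent kinase, stood at 102 ± 7.60 FPKM in PDGF-NS, against 57.2 ± 5.20 FPKM in LH-NS (0.83 ± 0.12, limma adjusted p = 0.0007). Prkca, protein kinase C alpha, rose by 0.81 in PDGF-NS. Its relative Prkcd fell by 0.45 in IGF-NS and by 0.75 in PDGF-NS on the log2 scale, and the call in IGF-NS was lost without IGF-NS library 1 (limma adjusted p = 0.052) or 2 (0.051).

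Transcription factors reported at connexin promoters changed in both directions. Of 15 tested, 3 rose and 4 fell in IGF-NS (median 0.07, but −0.09 with median ratio scaling), 6 rose and 2 fell in PDGF-NS (median 0.56; 4 fell under each of the 3 other scalings), and 6 were higher and 3 lower in PDGF-NS than in IGF-NS (median 0.18). Over all genes 17.4% rose and 7.48% fell in IGF-NS, and 20.7% rose and 10.2% fell in PDGF-NS. Between the treated sets 8.33% of all genes were higher and 7.55% lower in PDGF-NS. Across pseudocounts, filters, scalings and fits, 4 to 6 of these factors were higher and 3 to 4 lower there. The 4 that fell in IGF-NS became 1 without IGF-NS library 1 or 2 and 2 without LH-NS library 1, and the 2 that fell in PDGF-NS became 1 without LH-NS library 1 or PDGF-NS library 1 or 2. The 6 higher between the treated sets became 3 without IGF-NS library 2 or PDGF-NS library 3. Fosl1, the AP-1 subunit Fra-1, averaged 0.872 ± 0.381 FPKM in IGF-NS, 25.1 ± 6.15 FPKM in PDGF-NS and 5.91 ± 2.73 FPKM in LH-NS. Its log2 fold changes were −1.83 ± 0.30 and 1.97 ± 0.30 against control, and 3.79 ± 0.30 between the treated sets (limma adjusted p = 0.0025, 0.00096 and 4.1e-05). Fosl1 thus had the same order of sets as Gja5. Junb, another AP-1 subunit, fell in IGF-NS (−1.35) and rose in PDGF-NS (1.47). Its call in IGF-NS was lost without LH-NS library 1 or 2 or IGF-NS library 1 or 2 (adjusted p = 0.052 to 0.076). Jun, a further AP-1 gene, rose in PDGF-NS (1.22, limma adjusted p = 0.0029) but did not pass in IGF-NS (0.25, adjusted p = 0.45). Fosl2 fell in IGF-NS (−0.82, limma adjusted p = 0.03), a call that 6 of 19 alternative settings ended. Jund (−0.63 and −0.56) and Fos (−0.99 and 1.19) passed against control in neither set. Jun, Fosl2, Jund and Fos are named after their values were seen. Sp3, a factor that binds GC boxes, rose in both sets (1.21 and 1.36). Its relative Sp1 passed against control in neither set (0.07 and −0.01, limma adjusted p = 0.68 and 0.96) and is named after its values were seen. Klf2, a flow-responsive factor of endothelium, fell in IGF-NS (−1.32, adjusted p = 0.017), a call lost without IGF-NS library 1 (0.065) or 2 (0.059). Klf2 was called lower in PDGF-NS against LH-NS too, a call that 3 of 18 alternative settings ended (limma adjusted p up to 0.091). It was not called between the treated sets. Tbx5 and Nkx2-5, factors known for driving Gja5 in the heart, did not pass the filter. Other T-box and GATA factors of the list did. Tbx18 rose in IGF-NS (0.56, limma adjusted p = 0.0089) and was called between the treated sets. Gata6 and Tbx2 were called in PDGF-NS against LH-NS and between the treated sets. For Tbx2, 5 and 10 of 18 alternative settings ended these calls. Gata4 did not pass in IGF-NS against LH-NS (0.45, adjusted p = 0.08). All these T-box and GATA factors and Nkx2-5 are named after their values were seen.

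Cadherins and other contact genes are set beside shares of 7.48% lower in IGF-NS and 10.2% lower in PDGF-NS over all genes. Among the 14 tested, 0 rose and 3 fell in IGF-NS (median −0.15), and 1 rose and 6 fell in PDGF-NS (median −0.38). With median ratio scaling 5 fell in IGF-NS and 8 in PDGF-NS, where 0 then rose, and without LH-NS library 3 or PDGF-NS library 3 the number that fell in PDGF-NS was 3. Mcam, a cell adhesion molecule of vessel walls, fell by 1.76 in IGF-NS and by 2.60 in PDGF-NS on the log2 scale (limma adjusted p = 0.00022 and 1.2e-05). Cdh2, N-cadherin of adherens junctions, averaged 9.81 ± 1.84 FPKM in PDGF-NS, against 23.9 ± 0.651 FPKM in IGF-NS (−1.22 ± 0.15, adjusted p = 0.00047) and 21.2 ± 2.41 FPKM in LH-NS (−1.05 ± 0.15, adjusted p = 0.0006).

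Of 16 genes for channels that set the membrane potential, 7 were tested. In IGF-NS 1 rose and 3 fell (median 0.08, but −0.08 with median ratio scaling and −0.27 with a filter at a mean of 5 FPKM), and in PDGF-NS 2 rose and 2 fell (median 0.01, but −0.16 with quantile normalization). Over all genes 17.4% rose and 7.48% fell in IGF-NS, and 20.7% rose and 10.2% fell in PDGF-NS. Without LH-NS library 1, 2 channel genes rose in IGF-NS, and without PDGF-NS library 1, 1 fell in PDGF-NS. Trpc6, a receptor-operated cation channel, had 2.13 ± 0.0916 FPKM in IGF-NS, 20.9 ± 3.64 FPKM in PDGF-NS and 20.5 ± 9.20 FPKM in LH-NS. It fell in IGF-NS (−2.70 ± 0.25, limma adjusted p = 9.4e-05) and was higher in PDGF-NS than in IGF-NS (2.79 ± 0.25, adjusted p = 7.6e-05). Ano1, a calcium-activated chloride channel, rose in both sets, to 17.7 ± 4.48 FPKM in IGF-NS and 38.5 ± 10.0 FPKM in PDGF-NS, against 4.37 ± 1.59 FPKM in LH-NS. Kcnmb1, the accessory subunit of the large potassium channel, fell by 1.61 and 2.04 on the log2 scale. Abcc9, a subunit of the ATP-sensitive potassium channel, rose in PDGF-NS (1.35) and was higher there than in IGF-NS (1.27).

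**Figure D4:**
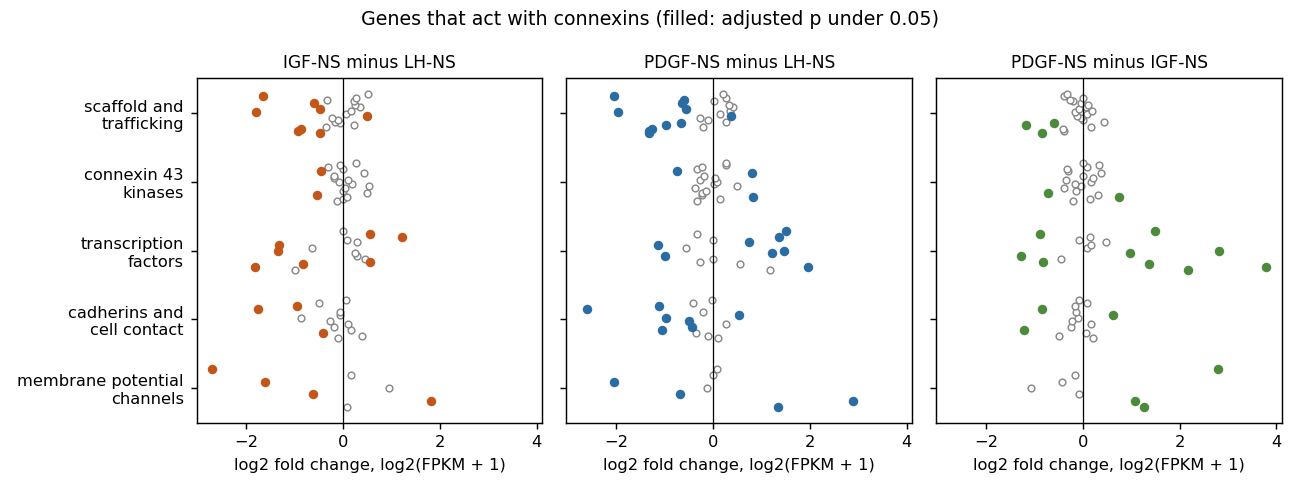
Log2 fold changes on the log2(FPKM + 1) scale (horizontal axes) of the tested genes of 5 lists, 1 row each, for IGF-NS minus LH-NS, PDGF-NS minus LH-NS and PDGF-NS minus IGF-NS. Each point is a gene, the vertical spread within a row only separates genes, and filled points have an adjusted p under 0.05. The points farthest from 0 in the right panel are Fosl1 at 3.79, Junb at 2.82 and Trpc6 at 2.79.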

How the data were processed

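RNA sequencing of 9 libraries, 3 per group, was deposited by the authors as 1 table of FPKM per gene. GSNAP and Cufflinks are named in the submitters' processing notes, without versions. The genome build is not given in the sources used here. Per the labels' protocols, RNA was extracted with Trizol and libraries were made with a Lexogen SENSE kit. Read counts are not used here, so depth is unknown in absolute terms and no counting interval is given. Of 26407 rows, 4 genes with the value 999999999 and 2 duplicate rows at 0 were removed. A listed 0 can be a failed estimate: 31 genes with a median over 5 FPKM had a library at 0.

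The 11376 genes averaging 1 FPKM or more over all libraries were tested on log2(FPKM + 1) with limma 3.58.1 in R 4.3.3, with a mean-variance trend. All 9 libraries entered 1 fit, with Benjamini-Hochberg adjustment over all tested genes and a threshold of 0.05. The script was tested on simulated data. Shares were compared by exact two-sided permutation of 3 against 3 libraries, where the smallest p is 0.1. Groups follow column names, which differ from the sample records in the growth factor. The genes named are the 4 connexins, the 3 genes with the highest Pearson correlation with each, and at most 4 called genes per list and comparison, by size of change. Connexins and pannexins reaching 1 FPKM come under the rule too. Some genes that the rule picks are not reported here. Members and lists were chosen with earlier results of these data known. Alternatives were other pseudocounts, filters, scalings and fits, a replicate block, and leaving out each library. They were run for the listed genes too, a choice made after seeing the data.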

Additional observations from a re-analysis of the deposited data

Results flagged for a closer look

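The treated sets differed from each other, by the test of PDGF-NS against IGF-NS itself, in 3 of the 4 connexin genes. Of all tested genes 15.9% were called in this comparison. The log2 fold change was 3.84 for Gja5 (limma adjusted p = 1.1e-05), 0.73 for Gja1 (adjusted p = 0.036) and −0.54 for Gjc1 (adjusted p = 0.04). Leaving out 1 library at a time ended the Gja1 call in 7 of 9 fits and the Gjc1 call in 5 of 9. Among the other settings, 3 ended the Gja1 call and 3 the Gjc1 call. The Gja5 call held throughout. For Gja5 all 3 PDGF-NS libraries lay above and all 3 IGF-NS libraries below the controls. Both sets were compared with the same LH-NS libraries. Groups of 3 libraries were not tested for outlying values.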

How the results depend on the processing

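No alternative ended or reversed a call of Gja5, whose log2 fold change over the left-out libraries ranged from −2.13 to −1.78 for IGF-NS against LH-NS, from 1.71 to 2.12 for PDGF-NS against LH-NS and from 3.68 to 4.07 between the treated sets. With a pseudocount of 0.1 these were −3.45, 2.11 and 5.56, and with 5 they were −0.76, 1.31 and 2.07. For IGF-NS against LH-NS, the fit of these groups alone left Gja1 at −0.76 (limma adjusted p = 0.057), left-out libraries gave −0.98 to −0.53, and median ratio scaling turned Gjc1 to −0.016 (adjusted p = 0.96). For PDGF-NS against LH-NS, Gjc1 passed with median ratio scaling (−0.53), a common sum (−0.54) and quantile normalization (−0.53), Gja4 passed with these groups alone (0.57), and left-out libraries gave −0.50 to −0.30 for Gjc1 and 0.43 to 0.69 for Gja4. Gja1 there ranged from −0.25 to 0.20, positive without LH-NS library 3 (0.20) or PDGF-NS library 1 (0.02). Between the treated sets, Gja1 missed the threshold without the filter (0.73), with a common sum (0.60) and with quantile normalization (0.62), and Gjc1 did without the filter (−0.54) and with median ratio scaling (−0.51). Left-out libraries gave 0.66 to 0.78 for Gja1 and −0.67 to −0.46 for Gjc1. The difference in the Gja1 share, 0.511 percentage points, became 1.46 over all connexins. Same-numbered libraries did not deviate together (correlations −0.28 to 0.25), and differently numbered ones ranged from −0.51 to 0.41. The numbers are used only as names, though with 3 libraries per group this check cannot exclude a pairing. The fit with the replicate block called 2457, 3221 and 1530 genes and gave −0.54 for Gjc1 between the treated sets (adjusted p = 0.08). Left-out libraries gave 1752 to 2957, 2360 to 3757 and 1009 to 2152 called genes, the lowest without IGF-NS library 1 (1752) and, between the treated sets, without PDGF-NS library 3 (1009) or 2 (1193). Higher calls made up 69.9% in IGF-NS against LH-NS (48.1% with median ratio scaling, 50.9% with quantile normalization), 66.9% in PDGF-NS against LH-NS (51.3%, 49.1%, and 50.3% with a common sum) and 52.5% between the treated sets (33.2% with a common sum). The cause of these changes was not tested. Absolute depth is unknown, which limits what can be said of Gja5 in IGF-NS.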
